A study of Mus musculus with 6 samples.

Results

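Broad domains of the histone mark H3K79me2 were examined in mouse myeloid leukaemia cells driven by MN1 (meningioma-1). A domain was an autosomal peak of the authors' combined peak list that was at least 50 kb wide and had a pooled pileup of at least 40 reads. The pileup is the coverage of immunoprecipitated reads that the peak caller reports for a region, and its scaling is not stated in the labels or the header. The 765 domains were selected on width and pileup, and made up 4.15% of the 18418 autosomal peaks, in a list of 18992 peaks. Fold enrichment and q-value come from the same comparison of H3K79me2 with input, so all 4 values are given as descriptions without a test.

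The cells were blasts sorted from the marrow of moribund C57BL/6 mice that had received MN1-transformed CMP cells. All libraries carried the same genotype, Dot1l f/f, a conditional allele that had not been inactivated, so the set holds no group without DOT1L. The blasts were cultured briefly in M3234 with serum, Il3, Il6 and SCF before chromatin was prepared. There were 3 H3K79me2 libraries, made with Abcam antibody ab3594, and 3 input libraries sequenced without antibody. The labels do not say whether numbered libraries came from different mice. The list pools the libraries and has no value per library and no read total, so no value here has a spread between replicates. Intervals are at the 95% level and describe counting error, or how peaks differ among themselves. Positions are in mm9, and genes under the domains were not assigned because an mm9 annotation was not used here. For the same reason the cell type could not be set against marker genes.

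DOT1L is the enzyme that methylates lysine 79 of histone H3. The residue lies on the surface of the nucleosome core and not on the tail. DOT1L travels with complexes that contain AF10 and other partners of RNA polymerase II elongation, and the dimethyl form covers the beginning of transcribed genes and spreads into their bodies. In leukaemias with rearranged MLL, H3K79me2 is known to extend unusually far over the fusion protein's target genes, and long domains of this mark are therefore of interest in myeloid leukaemia.

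The 765 domains held a large part of the marked sequence. Together they covered 62.8 Mb, which was 28.9% of the 217.6 Mb covered by all autosomal peaks. Their median width was 71.3 kb (interval 68.4 to 73.1), with quartiles of 57.5 and 92.5 kb. The widest 10% began at 126.2 kb, and the widest domain reached 587.2 kb. The 145 domains of at least 100 kb held 32.9% of the bases in domains, and the 42 of at least 150 kb held 13.2%. The 10 widest alone covered 2.70 Mb, or 4.31% of those bases.

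The domains ranged widely in signal. Their median pileup was 88.8 reads (interval 84.9 to 91.5), with quartiles of 64.5 and 108.8 and a highest value of 188.8. A pileup of at least 100 reads was reached by 267 domains, against 7.24% of all autosomal peaks, and one of at least 150 reads by 25, against 0.662%. The median fold enrichment over the control background, as the authors' caller gave it, was 6.92 (6.73 to 7.19), and folds ran from 3.29 to 13.8. A fold of at least 4 was found in 696 domains, against 29.5% of all autosomal peaks. A fold of at least 8 was found in 252, against 6.69%. The lowest −log10 q of a domain was 10.88, and 36.6% of all autosomal peaks reached 10. The fold follows the pileup that chose the domains closely, with a Spearman's rho of 0.99 over the domains, and the q-value comes from the same comparison, so these shares are no separate check of the label.

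**Figure D1:**
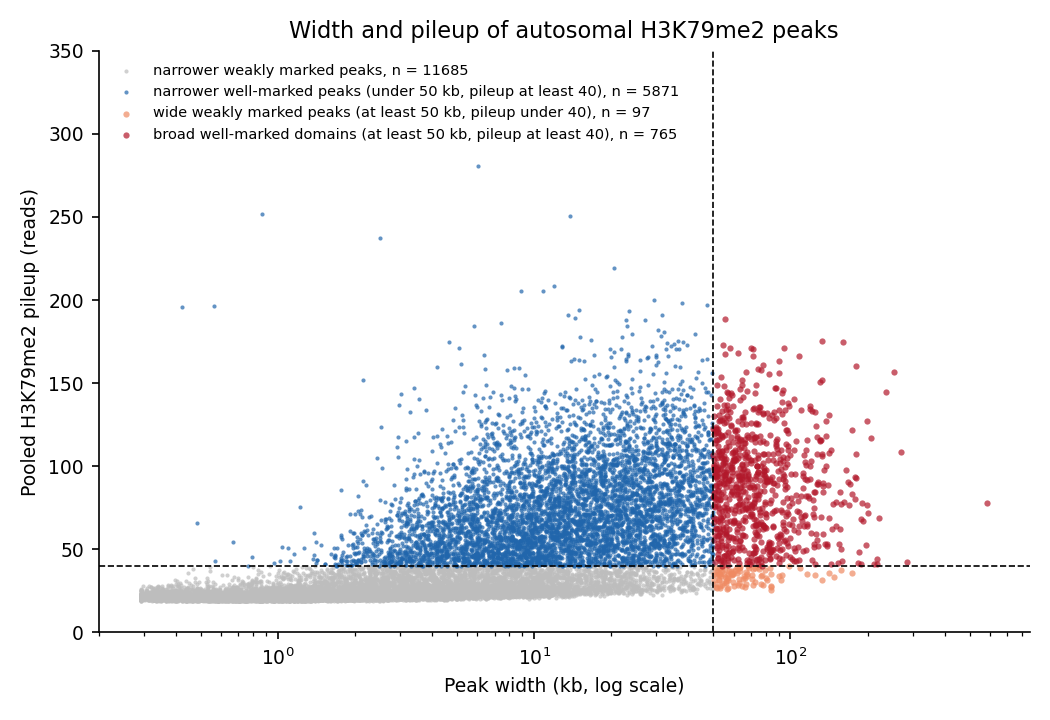
Width (kb, log scale) against pooled pileup (reads) for each of the 18418 autosomal peaks, with dashed lines at 50 kb and 40 reads. The 765 domains (red, upper right) run from 50.01 to 587.2 kb, and the highest pileups of the list, up to 280.6 reads, lie among peaks under 50 kb.

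The limits cut through a continuous range of peaks. Just inside the width limit lay a domain of 50.01 kb on chromosome 2 with a pileup of 122.5 reads, one of 50.04 kb on chromosome 4 with 81.8 reads, and one of 50.04 kb on chromosome 19 with 106.5 reads. Just outside lay well-marked peaks of 49.995 kb on chromosome 7, 49.98 kb on chromosome 3 and 49.97 kb on chromosome 14, with pileups of 97.2, 64.9 and 72.4 reads. There were 131 domains under 55 kb, and 150 peaks of 45 to 50 kb with at least 40 reads lay outside. At the pileup limit, the lowest domains had 40.05 reads on chromosome 6, 40.1 reads on chromosome 8 and 40.7 reads on chromosome 15. The nearest wide peaks outside had 39.8 reads on chromosome 1, 39.7 reads on chromosome 2 and 39.7 reads on chromosome 5. Here 35 domains lay between 40 and 44 reads and 29 wide peaks between 36 and 40.

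Most wide peaks were well marked. Of the autosomal peaks of 50 to 60 kb, 84.7% (exact interval 79.9% to 88.7%) had at least 40 reads, and of those of 100 to 150 kb 94.5% (88.4% to 98.0%). Among autosomal peaks under 50 kb, 5871 had at least 40 reads and 11685 had fewer. The 97 wide peaks below 40 reads had a median fold of 2.85 (2.79 to 2.94) and covered 6.80 Mb. Their widest, 173.5 kb on chromosome 11 from 67268878 to 67442363, had a pileup of 35.7 reads and a fold of 2.96. Wide peaks with weak marking were therefore few beside the domains, at 3.13% of the covered autosomal bases.

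The share of peaks that were at least 50 kb wide was larger at higher pileups, up to a point. It was 6.71% (5.72% to 7.81%) among peaks of 40 to 60 reads and 9.02% (7.72% to 10.5%) at 60 to 80 reads. It was 14.9% (12.97% to 17.01%) at 80 to 100 reads and 19.4% (16.6% to 22.5%) at 100 to 120 reads. From 120 to 150 reads it was 20.9% (17.3% to 24.8%), and the intervals of the bins above 100 reads overlapped. None of the 9 peaks of at least 200 reads was a domain (exact upper bound 33.6%), and the median width of these 9 was 10.8 kb. At that number the bound lies above the share in every other bin.

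**Figure D2:**
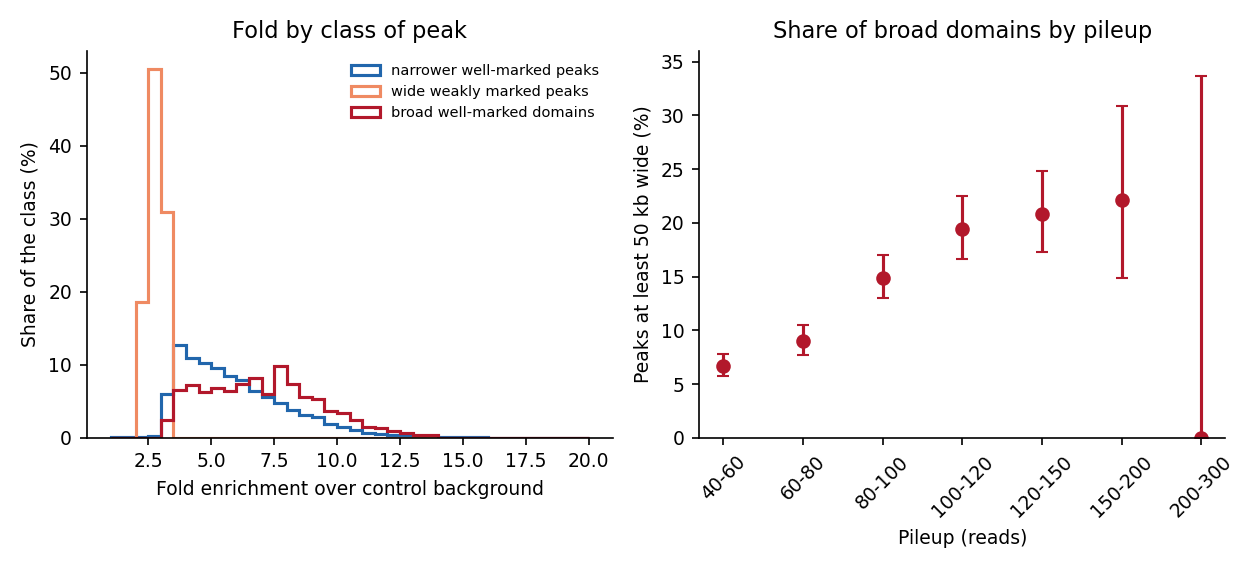
Left, fold enrichment in bins of 0.5 as a share of each class for the 765 domains, the 97 wide weakly marked peaks and the 5871 narrower well-marked peaks. Right, the share of peaks at least 50 kb wide in each pileup range, with exact 95% intervals; it goes from 6.71% at 40 to 60 reads to 22.1% at 150 to 200 reads, and is 0 for the 9 peaks above.

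Among the domains themselves, width and signal went largely separate ways. Spearman's rho between width and pileup over the 765 domains was -0.08, a description over peaks of 1 pooled list. Domains of 50 to 60 kb had a median pileup of 92.7 reads (87.7 to 96.5), and the 42 domains of at least 150 kb had 77.6 reads (67.0 to 84.2). The classes between had medians of 88.9, 88.95 and 82.7 reads. The highest pileup was similar in all width classes, from 171.3 to 188.8 reads. A caller can report an average over a region, which in a wide domain may be lower than its summit. Neither labels nor header name the mode used, and its part in these values was not tested. No domain was both among the 10 widest and among the 10 with the highest pileup. With 10 of 765 domains in each list, unrelated lists would seldom share a member. The lack of overlap therefore says nothing about how width and pileup relate.

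The 10 widest domains lay on 8 chromosomes and fell into strongly and weakly marked ones. The widest, on chromosome 6 from 98890397 to 99477613, had a pileup of 77.7 reads. It had only 1 other peak in the 100 kb on each side, and that peak was not well marked. The domain of 284.7 kb on chromosome 5 from 132657475 to 132942202 had 42.2 reads and lay 1.29 kb from another domain. The third, 271.1 kb on chromosome 1 from 129099342 to 129370482, stood alone, with a pileup of 108.7 reads and no other peak within 297.6 kb.

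The other domain of chromosome 5 among the 10 widest, from 136792526 to 137045631, combined great width with strong signal. It was 253.1 kb wide, with 156.6 reads. The domain of 235.9 kb on chromosome 6 from 133982004 to 134217881 was close to it, with 144.4 reads and a fold of 11.3. On chromosome 16, a domain of 220.7 kb from 92606774 to 92827478 had 69.0 reads and a fold of 5.50, with no other peak within 140.9 kb. On chromosome 4, a domain of 205.5 kb from 87474401 to 87679907 had 116.9 reads and a fold of 8.96.

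A further 3 of the 10 widest lay near the pileup limit. The first was a 217.0 kb domain of chromosome 2, from 134611981 to 134828974, which had 40.98 reads and a fold of 3.33. On chromosome 7, 216.9 kb from 75096955 to 75313866 had 44.4 reads and a fold of 3.74. One of 212.3 kb on chromosome 14 from 22917925 to 23130258 had 41.2 reads and a fold of 3.37. With the chromosome 5 domain of 284.7 kb, 4 of the 10 widest had a fold under 4. For comparison, 696 of all 765 domains had a fold of at least 4. The 10 widest were not tested against the other domains for this.

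The most strongly marked domains were mostly much shorter than the 10 widest, which had been picked for their width. The highest pileup, 188.8 reads with a fold of 13.5, belonged to a domain of 55.3 kb on chromosome 10 from 107597859 to 107653175. The next was wider, 133.3 kb on chromosome 3 from 60298784 to 60432063, with 175.3 reads and a fold of 12.8. The third was wider still, 159.8 kb on chromosome 8 from 125411485 to 125571245, with 174.9 reads and a fold of 13.5. These last 2 were among the 7 domains that had at least 100 kb and at least 150 reads, out of 25 with at least 150 reads. Of all 765 domains, 145, or 19.0%, were at least 100 kb wide. Whether the 2 shares differ was not tested.

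Of the next 7 by pileup, 3 were on chromosome 11. One of 54.7 kb ran from 57819690 to 57874425 with 173.0 reads and a fold of 13.7. One of 70.4 kb ran from 115503129 to 115573573 with 171.4 reads and a fold of 13.7, and had a neighbouring peak within 1.79 kb on each side. One of 55.5 kb ran from 90198283 to 90253814 with 167.2 reads and a fold of 12.6. A second domain of chromosome 8, 94.2 kb from 114058692 to 114152923, had 171.3 reads and a fold of 13.4. Of these 4, the domain of 55.5 kb had the lowest fold, and the other folds ran from 13.4 to 13.7.

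The remaining 3 lay on other chromosomes. The domain on chromosome 14 from 67633332 to 67691565, 58.2 kb wide with 170.9 reads, had the highest fold of all domains, 13.8. The domain on chromosome 7 from 73252436 to 73323841 was 71.4 kb wide, with 170.5 reads and a fold of 12.9. The domain on chromosome 18 from 46888794 to 46951134 was 62.3 kb wide, with 168.2 reads and a fold of 12.4. The 10 highest folds shared 8 domains with this list. They added a 71.4 kb domain of chromosome 2, from 3628676 to 3700097 at a fold of 12.8, and one of 108.3 kb on chromosome 16 from 94788606 to 94896914, also with a fold of 12.8.

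At the other end, the 5 lowest folds ran from 3.29 to 3.34. The lowest was the domain of 77.3 kb on chromosome 6 from 86797489 to 86874743. It was followed by 53.3 kb on chromosome 14 from 21748740 to 21802016 and by 74.95 kb on chromosome 1 from 80604111 to 80679063. The 217.0 kb domain of chromosome 2 described above was the fourth, and a domain of 70.5 kb on chromosome 11 from 78440274 to 78510773 was the fifth. Weak domains thus included both short and very wide ones.

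Compared with peaks that met the same pileup limit but were narrower, the domains had higher medians. The 5871 narrower well-marked peaks had a median pileup of 68.9 reads (68.1 to 69.95) and a median fold of 5.50 (5.43 to 5.57). Both were below the medians of the domains. The highest fold among them, 19.2, was above the 13.8 of the domains. Pileup entered the choice of both sets, so this difference was not tested.

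Close neighbours were about as frequent for domains as for autosomal peaks in general, and most were weak. In 378 of the 765 domains, or 49.4% (exact interval 45.8% to 53.0%), another peak began or ended within 3 kb, against 49.0% of all autosomal peaks. When only peaks with a −log10 q of at least 10 were kept, the share of domains was 9.02%. No share at that setting was computed for the other classes. In the full list, a peak within 3 kb was found beside 31.6% (30.5% to 32.9%) of the narrower well-marked peaks. For the wide weakly marked ones it was 67.0% (56.7% to 76.2%). Within 10 kb, 539 domains, or 70.5%, had a neighbour, against 74.1% of all autosomal peaks. The median distance from a domain to the nearest peak was 3.08 kb (2.56 to 3.70). It was 6.89 kb (6.52 to 7.22) for narrower well-marked peaks. Whether the caller's joining distance, pileup or gene density bore on these distances was not tested.

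The close neighbours were mostly weak, short peaks on 1 side, and in width and fold they were near the median autosomal peak. Of the 378 domains with a peak within 3 kb, 340 had it on 1 side only and 38 on both. The lower-coordinate side alone had it in 180 domains and the higher-coordinate side alone in 160. The 1-sided share was 89.9% for domains, 90.7% for narrower well-marked peaks and 78.5% for wide weakly marked peaks. Orientation relative to a gene was not analysed here. The 414 peaks beside the domains had a median width of 4.23 kb and a median fold of 2.14, with quartiles of 1.91 and 2.64. All autosomal peaks had a median width of 4.44 kb and a median fold of 2.28. Of the 414, 336, or 81.2%, were narrower weakly marked peaks, against 63.4% of all autosomal peaks. A further 51 were narrower well-marked peaks and 9 were wide weakly marked ones, classes that make up 31.9% and 0.527% of all autosomal peaks. The last 18 were domains themselves, which make up 4.15% of all autosomal peaks.

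**Figure D3:**
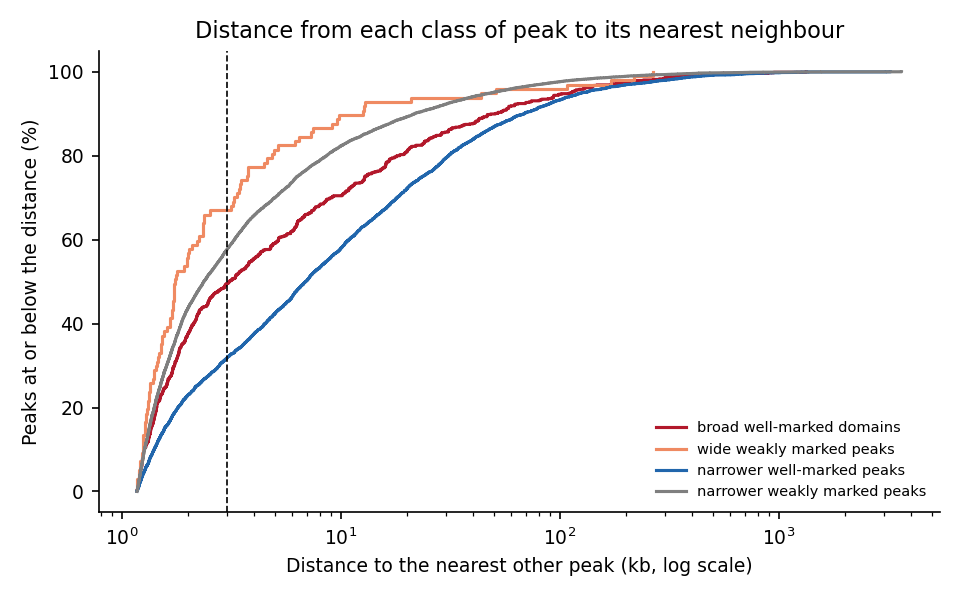
Cumulative share of peaks (%) against the distance to the nearest other peak (kb, log scale) in 4 classes, with a dashed line at 3 kb. At 3 kb the curve of the domains stands at 49.4%, between the narrower well-marked peaks at 31.6% and the wide weakly marked peaks at 67.0%.

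In 9 places, 2 domains were separated by less than 3 kb. The longest such pair, on chromosome 5, joined the 284.7 kb domain to one of 75.3 kb from 132943490 to 133018754 across 1287 bp, 361.3 kb in all. The folds of the 2 domains were close, 3.49 and 3.66. On chromosome 17, domains of 156.0 kb from 4990153 to 5146187 and 156.4 kb from 5148695 to 5305095 lay 2507 bp apart, with folds of 7.08 and 5.01. On chromosome 8, domains of 114.4 kb from 70423543 to 70537978 and 119.9 kb from 70539692 to 70659612 were 1713 bp apart, with folds of 7.23 and 7.76.

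The partners of a pair were not always alike in strength. On chromosome 10, a domain of 92.6 kb from 92619700 to 92712312 had a fold of 11.04, and its neighbour of 59.5 kb from 92714261 to 92773750, 1948 bp away, had 5.39. When all peaks at most 3 kb apart were joined, the 765 domains fell into 754 stretches, of which 387 were a single peak and 25 held at least 5 peaks. The number of stretches of at least 200 kb was 30, against 11 single domains of that width.

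Distances from a domain to the next domain varied widely. The median distance from a domain to the next domain was 708.2 kb, with quartiles of 229.0 and 1918 kb. Another domain lay within 500 kb of 330 domains, or 43.1% (39.6% to 46.7%). No such share was computed for other peaks, so whether domains lay unusually close together or far apart cannot be told from it. In the 100 kb on each side, other peaks covered a median of 16.1% (15.05% to 17.9%) of the sequence beside a domain. The figure was 17.8% (17.3% to 18.4%) beside narrower well-marked peaks and 22.9% (22.5% to 23.2%) beside all autosomal peaks. No other well-marked peak touched these flanks in 255 domains, or 33.3% (29.997% to 36.8%), against 23.1% of all autosomal peaks and 20.4% (19.3% to 21.4%) of narrower well-marked peaks. No peak at all touched them in 41 domains, or 5.36% (3.87% to 7.20%), against 3.90% of all autosomal peaks, which lies inside that interval.

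The most isolated domains lay far from any other marking. The domain of 57.2 kb on chromosome 10 from 3134472 to 3191657 was the first peak of its chromosome, with 1331 kb to the next, a pileup of 43.4 reads and a fold of 3.75. On chromosome 18, a domain of 99.8 kb from 55052442 to 55152193 had 106.8 reads and a fold of 8.45, with no peak within 946.3 kb. On chromosome 11, a domain of 146.4 kb from 18779644 to 18926067 had 77.0 reads and no peak within 891.7 kb. A second domain of chromosome 18, 59.9 kb from 76398284 to 76458163, had 103.7 reads and a gap of 542.1 kb. The last of the 5, 64.5 kb of chromosome 5 from 75971082 to 76035575, had 76.4 reads and a gap of 530.6 kb. So 4 of the 5 were marked at a fold above 6 while standing alone. The median fold of all domains was 6.92, so a fold above 6 was not particular to isolated ones.

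The most crowded surroundings were found on chromosome 11. A domain of 72.3 kb from 62207574 to 62279883, with 109.2 reads, had 19 other peaks in the 100 kb on each side, of which 2 were well marked. There were 16 such peaks beside a domain of 90.5 kb on chromosome 13 from 36185611 to 36276090, with 42.02 reads, and none of them was well marked. Also with 16 were a domain of 52.2 kb on chromosome 17 from 66069710 to 66121861 with 44.6 reads and one of 159.3 kb on chromosome 18 from 84602143 to 84761471 with 42.9 reads. A domain of 59.1 kb of chromosome 10 from 9337441 to 9396518 with 98.3 reads had 14. In 3 of these 5 the domain itself lay near the lower limit of the pileup.

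Some domains formed groups in which no gap between neighbours exceeded 500 kb. There were 435 single domains, 113 pairs, 17 groups of 3, 9 of 4, 1 of 5 and 2 of 6. One of the groups of 6 lay on chromosome 11 from 106068140 to 107332472, where domains of 53.95 to 116.0 kb covered 39.9% of 1264 kb. Their pileups were 92.4, 136.0, 91.5, 113.9, 118.1 and 44.04 reads in order along the chromosome. The last of them was thus much weaker than the other 5.

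The other group of 6 lay on chromosome 17 from 27709798 to 28882471, where domains covered 34.1% of 1173 kb. Their pileups were 139.9, 102.1, 51.3, 98.6, 130.7 and 120.4 reads, and the third was the weak one. The group of 5, on chromosome 3 from 51049250 to 51908918, was denser, with 65.5% of 859.7 kb in domains and 76.1% in peaks of any kind. It held a domain of 184.4 kb with 48.2 reads from 51549668 to 51734111 and one of 170.6 kb with 89.5 reads from 51738274 to 51908918, only 4.16 kb apart. A domain of 62.1 kb from 51216573 to 51278662 was the strongest of this group, with 121.6 reads.

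The densest of the 5 largest groups lay on chromosome 6 from 28165751 to 28746237. Its 4 domains filled 84.9% of 580.5 kb and left room for just 1 other peak. From low to high coordinate they were 82.5, 98.6, 167.4 and 144.3 kb wide, with pileups of 53.0, 75.9, 90.5 and 41.4 reads. A second group of chromosome 11, from 86098009 to 87174151, held 4 domains of 73.8 to 126.5 kb over 1076 kb, with pileups of 71.8 to 109.9 reads. In 4 of these 5 groups the highest pileup was more than 2 times the lowest. Pileups of all domains ran from 40.05 to 188.8 reads. Whether members of a group were less alike than domains taken from the whole set was not tested. Some of the other groups, not described here, were more even.

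**Figure D4:**
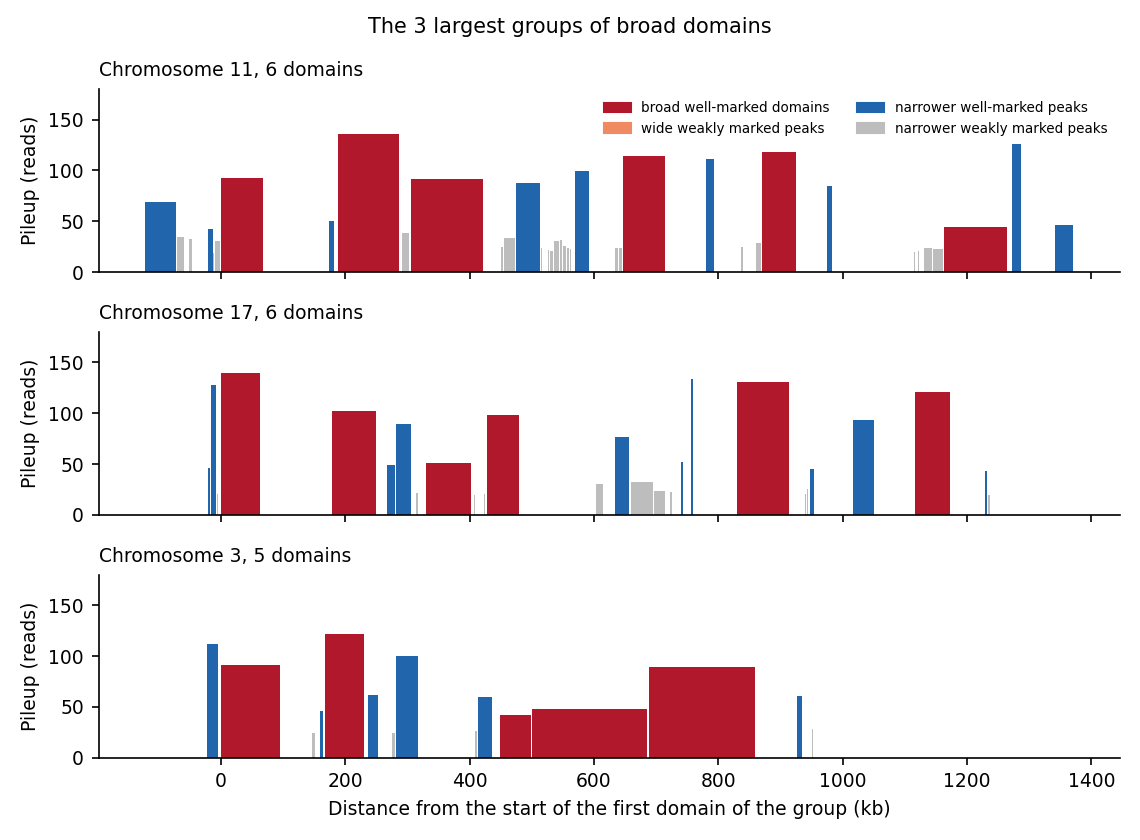
Pileup (bar height, reads) of every peak in the 3 largest groups of domains and the 100 kb beyond them, drawn to scale by distance (kb) from the start of the first domain. The domains (red) differ in height within a group, from 44.04 to 136.0 reads on chromosome 11, and the 3 last domains on chromosome 3 nearly touch.

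All autosomes carried domains, from 23 on chromosome 16 to 68 on chromosome 2. Relative to the distance from the first to the last peak, chromosome 11 had the highest density, 53.1 per 100 Mb (Poisson interval 40.8 to 68.0), and chromosome 19 the next, 50.03 (33.5 to 71.9). Chromosome 7 had the lowest, 20.8 (14.1 to 29.5), and the median was 30.8. The intervals of chromosomes 11 and 7 did not overlap, while that of chromosome 19 overlapped all but those of chromosomes 1 and 7. Among the 3 lowest, chromosomes 16 with 24.3 (15.4 to 36.5) and 1 with 24.5 (17.97 to 32.5) could not be ordered.

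As a share of a chromosome's peaks, domains ranged from 2.65% (1.81% to 3.75%) on chromosome 7 to 5.93% (4.43% to 7.75%) on chromosome 3. On chromosomes 11 and 19, which had the highest densities, it was 4.82% (3.73% to 6.13%) and 4.79% (3.23% to 6.80%). Both intervals held the 4.15% of all autosomal peaks, so by this measure these chromosomes did not stand out. Domains held 20.3% of the covered bases on chromosome 7 and 38.3% on chromosome 3. The median pileup of the domains varied little between autosomes, from 77.0 reads (62.05 to 96.5) on chromosome 6 to 95.97 (82.4 to 116.0) on chromosome 17, with intervals that overlapped. The chromosomes thus differed in the number of domains more clearly than in their signal.

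**Figure D5:**
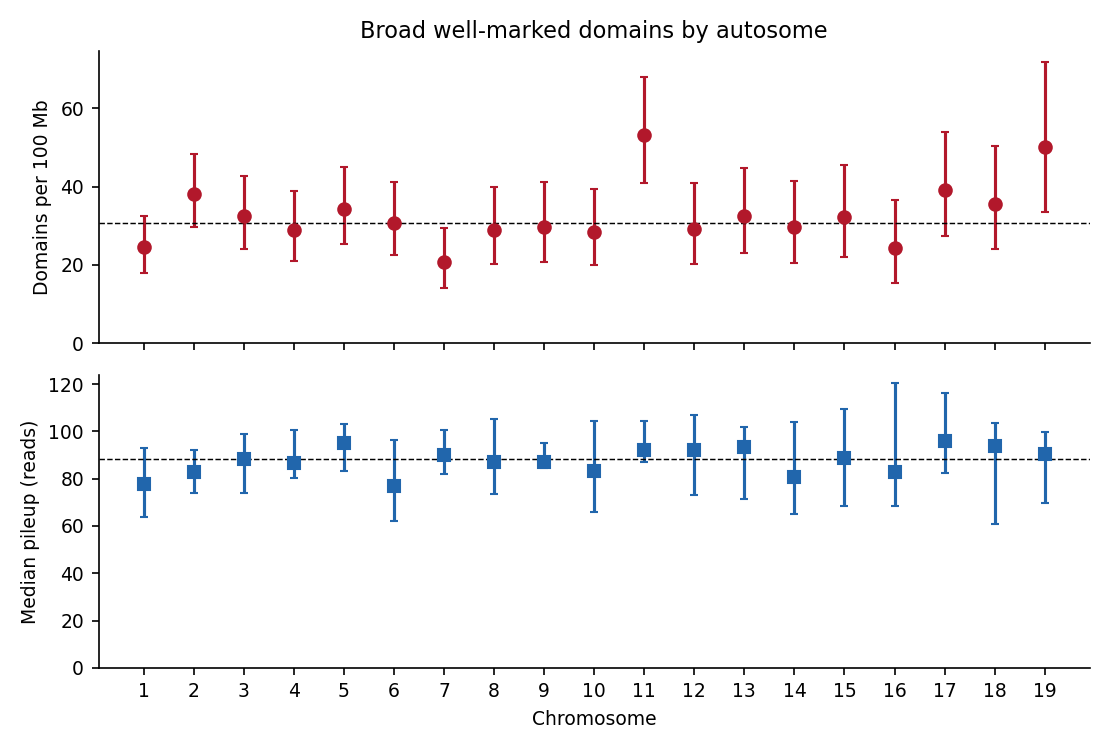
Upper, domains per 100 Mb of each autosome with exact Poisson 95% intervals; lower, median pileup (reads) of its domains with exact intervals. Dashed lines are medians over the 19 autosomes, 30.8 per 100 Mb and 88.4 reads; chromosome 11, at 53.1 per 100 Mb, stands above the line with its whole interval.

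The autosomes also differ in their number of long genes, over which a gene-body mark can extend far. In the RefSeq table of GRCm38.p6, 4724 of 20661 protein-coding genes on the autosomes, or 22.9%, are at least 50 kb long. Per 100 such genes there were 12.1 domains on chromosome 16 and 23.7 on chromosome 11, with a median of 16.4. On chromosome 7 there were 12.2, but it has 2030 protein-coding genes of which just 254 are that long. Across the 19 autosomes, the density of domains and that of long genes had a Pearson's r of 0.54 and a Spearman's rho of 0.38. Leaving out chromosomes 9 and 19, whose density of long genes was most extreme, gave an r of 0.52 and a rho of 0.34. With all protein-coding genes r was 0.48 and rho 0.25, and without chromosomes 7 and 11, the highest in that density, r was 0.69 and rho 0.38. Which of the 2 gene sets had the higher r therefore changed with the chromosomes left out. These are descriptions over chromosomes that share 1 pooled list, gene numbers come from another build than the peaks, and both densities have the same span as denominator.

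The widest domain of each autosome adds 11 regions to those above. They ran from 139.5 kb on chromosome 9 to 201.0 kb on chromosome 3. The one on chromosome 12, 180.4 kb from 78304048 to 78484437, was the strongest, with 160.0 reads and a fold of 11.8. The ones on chromosome 8, 165.1 kb from 119780629 to 119945741, and on chromosome 19, 178.7 kb from 24455079 to 24633772, had 97.9 and 93.4 reads. The one on chromosome 9, from 71820047 to 71959585, had 88.9 reads.

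The other 7 were weaker. The domain on chromosome 11 from 88227499 to 88405503 had 80.3 reads over 178.0 kb. The domain on chromosome 10 from 66501928 to 66701203 had 76.5 reads over 199.3 kb, and that on chromosome 3 from 136331286 to 136532263 had 71.9 reads. On chromosome 15, 188.8 kb from 61869074 to 62057907 had 68.2 reads, and on chromosome 13, 192.5 kb from 20181371 to 20373839 had 66.96 reads. The lowest were 157.1 kb on chromosome 17 from 51162548 to 51319640, with 50.1 reads, and 189.3 kb on chromosome 18 from 65047498 to 65236778, with 41.1 reads. Reaching a great width therefore did not go with one level of signal.

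The control background varied little under most domains. It was computed from the pileup and the fold, and had a median of 11.7 reads (11.65 to 11.75), with quartiles of 11.4 and 12.1. None of the 765 domains was within 0.1 of the lowest background in the list, 10.5, against 16.4% of all autosomal peaks. This was not particular to domains, as the share was 0 among wide weakly marked peaks and 0.341% among narrower well-marked ones. Of the 3023 autosomal peaks so near the lowest background, 3003 were narrower weakly marked peaks. The highest, 15.5, lay under a domain of 75.4 kb on chromosome 12 from 115996804 to 116072192, with 74.5 reads and a fold of 4.58. The next highest was 13.7, under a domain of 116.2 kb on chromosome 7 from 80590678 to 80706905 with 115.5 reads. The lowest, 10.7, lay under a domain of 60.7 kb on chromosome 10 from 69559999 to 69620706. Medians by autosome ran only from 11.47 on chromosome 15 to 11.9 on chromosome 9, a narrower range than that of single domains. Spearman's rho between pileup and background over the domains was 0.42, again as a description.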

How the data were processed

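H3K79me2 (3 libraries) and input (3 libraries) were grouped by title. MACS2, bedtools 2.25.0, SAMtools, GSNAP and CASAVA 1.8.2 are named in the submitters' processing notes, with the build mm9 and without settings. Per the file header, the deposited list over the combined libraries gives each peak's pileup (a coverage signal), its fold enrichment (a ratio to the control background), and its −log10 p and −log10 q. The −log10 p column was not used. No read totals are stated, so depth is known only through the pileup.

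From these values, domains were selected, and gaps, flanks of 100 kb and groups of domains at most 500 kb apart were computed. The control background was (pileup + 1) / fold − 1, which takes it that the caller adds 1 to both terms. Medians have exact binomial rank intervals and shares exact (Clopper-Pearson) intervals. No test between samples was possible. Regions were named by rules: the 10 widest, the 10 highest pileups, the 10 highest and 5 lowest folds, the widest per autosome, the 5 most isolated, the 5 most crowded, the 5 largest groups, and the 3 on each side of each limit. The closest pairs, the wide weakly marked peak and the extremes of background were added after their values were seen. The domains, lists and limits were chosen with earlier results of these data known. Planned counts of genes under domains were not run, because no annotation of mm9 was used here. The computations were checked on simulated peaks. Computations ran in Python 3.11.15 with pandas 2.3.3, scipy 1.17.1 and numpy 2.4.6, and plots were drawn with matplotlib 3.10.9.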

Additional observations from a re-analysis of the deposited data

How the results depend on the processing

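No paired analysis was possible because the list pools the libraries, and for the same reason no library could be left out. The 3 planned results on genes under domains could not be run without a gene annotation of mm9, and a neighbour within 3 kb has no value once peaks that close are merged. The number of domains, 765, ran from 533 with a minimum of 60 kb to 1098 with 40 kb. Their share of covered autosomal bases, 28.9%, was 35.7% with a minimum of 40 kb, 23.1% with 60 kb, 31.4% with 30 reads, 25.6% with 50 reads, 38.7% among peaks with −log10 q of at least 10, 35.7% after merging peaks at most 3 kb apart and 28.5% of all covered bases with X and Y included. The median fold, 6.92, was 6.64 with 30 reads, 7.34 with 50 reads and 6.59 after merging. The median background, 11.7, was 11.8 with 50 reads. The share with a peak within 3 kb fell from 49.4% to 9.02% when only peaks with −log10 q of at least 10 were kept, since that setting removes weak neighbours. The share with another domain within 500 kb, 43.1%, was 56.4% with 40 kb, 30.6% with 60 kb and 49.3% after merging; the first 2 change the number of domains by construction. The other 26 of 41 alternative values stayed inside the interval of the value reported, or within 1.5 times it for the number of domains. The alternative with X and Y was chosen after seeing the data. The lowest listed pileup is 19 reads, so a domain broken by weaker marking is not distinguishable from separate domains at this depth.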

Other observations

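The X chromosome held 12 peaks of at least 50 kb among its 562, and 10 of them had at least 40 reads; Y held none. The widest, from 74756369 to 74887186 on X, was 130.8 kb wide with a pileup of 69.4 reads and a fold of 6.11. The strongest, 71.6 kb from 39502627 to 39574272, had 94.6 reads and a fold of 8.29. These 10 regions met the limits on width and pileup but lay outside the rule, which covers autosomes only. The labels give no sex, and X pileups were not adjusted for copy number.

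Joining peaks at most 3 kb apart changed the order of the widest stretches. After the 587.2 kb domain of chromosome 6, which stayed a single peak, came the pair of chromosome 5, 361.3 kb from 132657475 to 133018754. Next was a chain of 7 peaks on chromosome 2, 335.5 kb from 134611981 to 134947504, whose mean pileup weighted by width, 36.2 reads, lay under the limit of 40. The pair of chromosome 17, 314.9 kb from 4990153 to 5305095, had a mean of 73.2 reads. The last of the 5, 311.6 kb of chromosome 5 from 136733992 to 137045631, had 132.7 reads, the highest mean of these 5.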
